A study of Danio rerio with 48 samples.

Results

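The 10 genes described here encode the G protein, the phosphodiesterase and the opsin kinases of cone phototransduction in zebrafish: gnat2, gnb3a, gnb3b, gngt2a, gngt2b, pde6c, pde6h, grk7a, grk7b and grk1b. They were chosen by name as members of the pathway, with earlier results of these data known. All 10 were among the 15245 genes listed and the 11395 genes tested. They were measured in 48 QuantSeq 3′ mRNA libraries, each made from the left retina of an adult albino zebrafish of 6 to 9 months, in a model of chronic low light (CLL). The fish were kept in the dark for 24 h, which gave the 0 h baseline group, and then in continuous light of about 5000 lux until collection at 24, 36 or 72 hours post light onset (hpl) or at 5, 10, 14 or 28 days post light onset (dpl). Before that they had lived under a cycle of dark and 250 lux light. Each of the 8 time-points had 6 libraries, 3 in each of 2 library sets. The baseline fish also carried the albino background and the dark adaptation. The 0 h retinas were taken at the end of the 24 h of dark. Every comparison with 0 h therefore also sets retinas in light against retinas fresh from the dark. No group without dark adaptation was used here. No group was held for 28 days without the light, so duration of light and time since the start of the experiment cannot be told apart.

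In a cone, an opsin activated by light switches on transducin, a G protein made of alpha, beta and gamma subunits, and the alpha subunit relieves phosphodiesterase 6 of its inhibitory subunit. The enzyme then breaks down cyclic GMP, cation channels of the outer segment close and the cell hyperpolarizes. Opsin kinases end the response by phosphorylating the active opsin, which lets arrestin bind it. Zebrafish carry duplicated copies of several of these genes, and rods use a parallel set of subunits.

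The values are normalized read counts that add up to between 1631676 and 1636771 in every library, so the sequencing depth cannot be read from them. The rod markers rho, gnat1, saga and nr2e3 and the cone markers arr3a, arr3b, opn1sw1, opn1sw2, opn1mw2 and opn1lw2 were above 0 in all 48 libraries. Of 5 lens markers, cryaa was listed at 0 in 30 libraries, cryba1b in 29, crybb1 in 14, crygn2 in 8 and mipa in 3, and the highest value of any of them was 11.1. Only mipa was tested, and it was higher at 10 dpl (log2 change 1.73, adjusted p = 0.0288); the part of lens tissue in the results was not tested. Of the retinal pigment epithelium markers, best1 was not listed. The summed share of the other 5 averaged 0.399% to 0.632% at the 7 light time-points, against 0.151% at 0 h (0.0861% to 0.196% over 6 libraries). The part of that change in the results below was not tested. Of the 6 libraries at 72 hpl, replicate 4 was the lowest for 9 of the 10 genes. At 24 hpl replicate 1, and at 28 dpl replicate 5, was the lowest for 6 and the highest for 2. These were the only 3 of the 48 libraries that were lowest for 6 or more of the genes. Over all genes tested, each of these 3 also stood furthest from the others of its time-point. The genes more than 2-fold away from the median of the other 5 libraries made up 26.1% in 24 hpl replicate 1. This share was 26.7% in 72 hpl replicate 4 and 26.9% in 28 dpl replicate 5. At 36 hpl replicate 4 stood furthest, with 26.8%, and was the lowest for 2 of the 10 genes.

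The share of all normalized reads taken by the 10 genes together was lowest at 36 hpl. It averaged 7.21% ± 0.762 at 0 h, 4.89% ± 1.14 at 24 hpl, 2.64% ± 0.501 at 36 hpl, 4.48% ± 1.42 at 72 hpl, later 5.46% ± 0.540 at 5 dpl, 5.32% ± 0.949 at 10 dpl, then 6.71% ± 1.04 at 14 dpl and 5.90% ± 0.669 at 28 dpl (SD, n = 6 each). Every library at 36 hpl was below every library at 0 h, from 2.11% to 3.45% against 6.23% to 8.06%. This sum leans on pde6h, which had the highest mean of the 10 genes at 0 h. It averaged 61369 normalized reads there and 14382 at 36 hpl. In whole retinas, fewer cones and less of an RNA in each cone cannot be told apart from the level of a gene. The 10 genes did not move alike at 36 hpl, where the log2 change was 0.21 for gngt2a and 0.17 for gngt2b (adjusted p = 0.693 and 0.68), beside −4.55 for grk1b.

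Each gene was tested at each light time-point against 0 h with limma, with a gene called at a Benjamini-Hochberg adjusted p under 0.05 over all 11395 genes. At 24 hpl, 6 of the 10 genes fell, beside 7.14% of all genes tested. At 36 hpl 7 of the 10 fell, beside 3.8% of all genes, and at 72 hpl 6 fell, beside 5.7%. At 5 dpl 5 fell, beside 2.09% of all genes, at 10 dpl 4 fell, beside 1.51%, and at 14 dpl only grk1b fell, beside 2.31%. At 28 dpl 3 of the 10 fell, beside 3.26% of all genes, and gngt2b rose, beside 7.74% of all genes. The median log2 change of the 10 genes was −1.04 at 24 hpl, −2.41 at 36 hpl, −1.04 at 72 hpl, later −0.62 at 5 dpl, −0.66 at 10 dpl, then −0.21 at 14 dpl and −0.36 at 28 dpl, while that of all genes tested lay between −0.07 and 0.16. Some changes that did not pass in this fit over all time-points passed when each light time-point was fitted with 0 h alone. These were the changes of gnat2 at 14 and 28 dpl, gngt2a at 24 and 72 hpl, gngt2b at 5 and 14 dpl, grk7a at 5 dpl, pde6c at 10 dpl and grk7b at 14 dpl (adjusted p 0.000175 to 0.0342, limma). The share of all genes called in these separate fits was not counted. In the heatmap of log2 changes, grk1b is called at all 7 time-points and gngt2a at none.

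**Figure D1:**
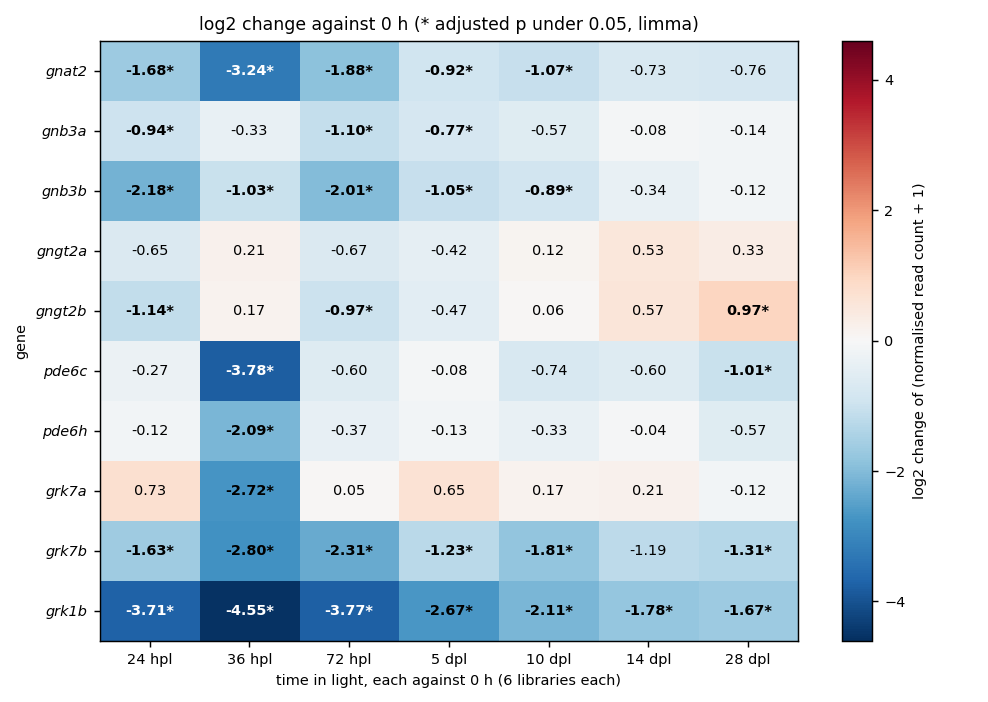
Heatmap of the log2 change of (normalized read count + 1) for each of the 10 genes (down) at each light time-point against 0 h (across), 6 libraries each, with an asterisk where the adjusted p of limma was under 0.05. grk1b fell at all 7 time-points and had the lowest value of the map, −4.55 at 36 hpl. pde6c, pde6h and grk7a stand at −3.78, −2.09 and −2.72 at 36 hpl and have values between −1.01 and 0.73 at the other time-points.

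The alpha subunit of cone transducin, gnat2, was below its baseline in every light library. From 0 h to 28 dpl its mean normalized read count was 10381 ± 1523 at 0 h, 3305 ± 760.0 at 24 hpl, 1177 ± 559.8 at 36 hpl, 3519 ± 1649 at 72 hpl, later 5454 ± 386 at 5 dpl, 4923 ± 381 at 10 dpl, then 6272 ± 928 at 14 dpl and 6129 ± 776 at 28 dpl (SD, n = 6 each). The 6 libraries at 36 hpl lay between 709.9 and 2228 with a median of 954, against 8056 to 11940 with a median of 10425 at 0 h. No library of any light time-point reached the lowest 0 h library, the nearest being 7512 at 14 dpl. On the log2 scale gnat2 fell by 1.68 at 24 hpl (adjusted p = 4.64e-05), by 3.24 at 36 hpl (adjusted p = 1.14e-11) and by 1.88 at 72 hpl (adjusted p = 7.31e-06), each with a standard error of 0.30. At 36 hpl gnat2 therefore stood at 11.3% of its 0 h mean.

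From 5 dpl on, gnat2 stood between 47.4% and 60.4% of its 0 h mean. It fell at 10 dpl (log2 change −1.07, adjusted p = 0.0182) and, close to the threshold, at 5 dpl (−0.92, adjusted p = 0.047), where leaving out any of 32 of the 48 libraries gave an adjusted p between 0.0503 and 0.0953, all 6 libraries of 5 dpl among them. At 14 dpl and 28 dpl the changes of −0.73 and −0.76 did not pass (adjusted p = 0.145 and 0.104). Both passed without 72 hpl replicate 4, at an adjusted p of 0.00289 for 14 dpl and 0.00138 for 28 dpl. That library held 422 normalized reads of gnat2 beside 3241 to 4939.5 in the other 5 of its time-point, and it enters each of these tests through the shared estimate of the spread.

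**Figure D2:**
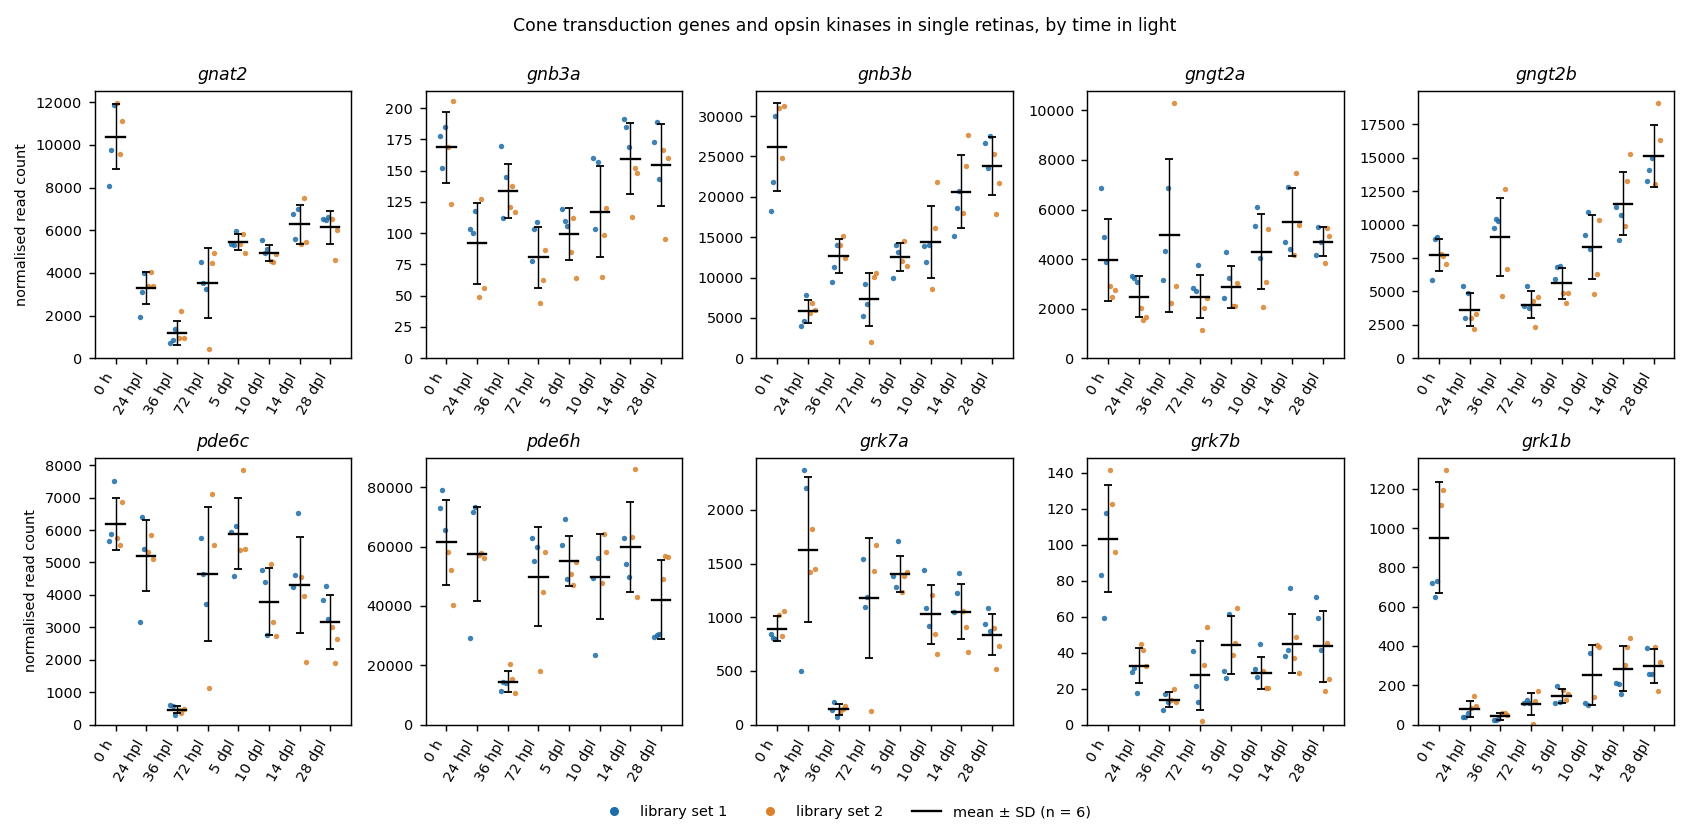
Normalized read count (vertical axes, linear and starting at 0) of each of the 10 genes in every library at the 8 time-points (horizontal axes), with the mean and SD of the 6 libraries in black and the 2 library sets in blue and orange. gnat2, pde6c, pde6h, grk7b and grk1b had their highest mean at 0 h and their lowest at 36 hpl. gngt2b had its highest mean, 15140, at 28 dpl, and pde6c, pde6h and grk7a dropped at 36 hpl to means of 458, 14382 and 141.

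The transducin beta subunits gnb3a and gnb3b were lowest at 24 and 72 hpl, with a higher level between, at 36 hpl. gnb3b averaged 26183 ± 5419 normalized reads at 0 h, 5809 ± 1414 at 24 hpl, 12703 ± 2112 at 36 hpl, 7285 ± 3309 at 72 hpl, later 12525 ± 1725 at 5 dpl, 14377 ± 4431 at 10 dpl, then 20640.2 ± 4491 at 14 dpl and 23799 ± 3571 at 28 dpl (SD, n = 6 each). The 6 libraries at 24 hpl, between 3945 and 7814 with a median of 5783, all lay below the 6 at 0 h, which were between 18297 and 31260.2 with a median of 27400. This held at 36 hpl, 72 hpl and 5 dpl as well, and from 10 dpl the ranges of light and baseline libraries overlapped. gnb3b fell by 2.18 on the log2 scale at 24 hpl (standard error 0.24, adjusted p = 1.47e-09), by 1.03 at 36 hpl (adjusted p = 0.00191), by 2.01 at 72 hpl (adjusted p = 1.43e-08), by 1.05 at 5 dpl (adjusted p = 0.00222) and by 0.89 at 10 dpl (adjusted p = 0.0132). The change at 10 dpl did not pass without 10 dpl replicate 4 (−0.74, adjusted p = 0.0654). At 28 dpl the log2 change of gnb3b was −0.12, with a 95% interval of −0.62 to 0.37.

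Its paralog gnb3a fell at 3 time-points. The 6 libraries at 0 h held between 124 and 205 normalized reads with a median of 173, those at 24 hpl between 48.8 and 127 with a median of 102, those at 36 hpl between 112 and 169 with a median of 129, and those at 72 hpl between 44.1 and 109 with a median of 82.1. At 72 hpl and at 5 dpl, where the highest library held 119, no library reached the baseline range. gnb3a fell at 24 hpl (log2 change −0.94, standard error 0.19, adjusted p = 0.000273), 72 hpl (−1.10, standard error 0.19, adjusted p = 2.67e-05) and 5 dpl (−0.77, standard error 0.19, adjusted p = 0.00445). At 36 hpl it was at 79.2% of its 0 h mean and did not pass (adjusted p = 0.287), and at 14 and 28 dpl it was at 94.6% and 91.6%. The change at 10 dpl (−0.57, adjusted p = 0.0556) passed when any of 9 libraries was left out, 3 of them from 10 dpl, at an adjusted p between 0.0382 and 0.0495.

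Of the transducin gamma subunits, gngt2b ended above its baseline. It averaged 7720.4 ± 1212 normalized reads at 0 h, 3636 ± 1227 at 24 hpl, 9073 ± 2898 at 36 hpl, 4018 ± 1024 at 72 hpl, later 5606 ± 1148 at 5 dpl, 8297 ± 2384 at 10 dpl, then 11549 ± 2362 at 14 dpl and 15140 ± 2302 at 28 dpl (SD, n = 6 each). At 28 dpl the 6 libraries held between 13003 and 19130 with a median of 14534, against 5821 to 9093 with a median of 7734 at 0 h, so that the groups did not overlap. In the fit over all time-points, gngt2b was the only gene of the 10 called as higher than 0 h, while grk7a passed so in other settings given below. gngt2b rose by 0.97 on the log2 scale at 28 dpl (standard error 0.21, adjusted p = 0.00063), which puts its mean at 196% of that at 0 h. Without 28 dpl replicate 5, the highest of the 6, the change was 0.88 (adjusted p = 0.00366). It had fallen earlier, at 24 hpl (−1.14, standard error 0.21, adjusted p = 4.59e-05) and 72 hpl (−0.97, standard error 0.21, adjusted p = 0.00056), and at those time-points as well no light library was within the 0 h range. The change of 0.57 at 14 dpl did not pass (adjusted p = 0.0796), and it passed without 14 dpl replicate 2 (0.67, adjusted p = 0.0407).

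gngt2a, the other gamma subunit, varied more among libraries of a time-point and did not pass the limma test at any of the 7 light time-points, with 2 changes below and 1 above 0 at an unadjusted p under 0.05. Its 6 libraries at 36 hpl held between 2237 and 10315 normalized reads with a median of 3743, against 2482 to 6857 with a median of 3404 at 0 h. The means were 62.5% of the 0 h mean at 24 hpl, 125% at 36 hpl, 62.6% at 72 hpl, later 72.3% at 5 dpl, 109% at 10 dpl, then 139% at 14 dpl and 118% at 28 dpl. The ranges of light and baseline libraries overlapped at each of these time-points. The log2 changes of −0.65 at 24 hpl (adjusted p = 0.0773) and −0.67 at 72 hpl (adjusted p = 0.0704) passed when 36 hpl replicate 5 was left out, at an adjusted p of 0.0322 and 0.0294, and the change at 72 hpl also passed without 72 hpl replicate 3 (adjusted p = 0.0443).

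The catalytic subunit of the cone phosphodiesterase, pde6c, had a single deep trough at 36 hpl. It averaged 6197 ± 800.3 normalized reads at 0 h, 5210.2 ± 1101 at 24 hpl, 458 ± 112 at 36 hpl, 4655 ± 2066 at 72 hpl, later 5890.1 ± 1106 at 5 dpl, 3796 ± 1024 at 10 dpl, then 4302 ± 1473 at 14 dpl and 3160.2 ± 843 at 28 dpl (SD, n = 6 each). The 6 libraries at 36 hpl held between 307 and 594 with a median of 457, and the lowest library of any other time-point, 72 hpl replicate 4, held 1142. The 36 hpl level was 7.39% of the 0 h mean, a log2 change of −3.78 (standard error 0.26, adjusted p = 8e-16). At 24 hpl the change was −0.27 (95% interval −0.80 to 0.25, adjusted p = 0.544).

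At the end of the time-course pde6c was again below baseline. At 28 dpl the 6 libraries held between 1909 and 4263 normalized reads with a median of 3147, against 5534 to 7512 with a median of 5810 at 0 h, a log2 change of −1.01 (standard error 0.26, adjusted p = 0.0066). Without 28 dpl replicate 5, the lowest of the 6, it was −0.89 (adjusted p = 0.0296). All 6 libraries at 10 dpl, between 2726 and 4952, were also below the baseline range, yet that change did not pass in the fit over all time-points (−0.74, adjusted p = 0.0731). It passed without 72 hpl replicate 4 (adjusted p = 0.0154), with 10 dpl and 0 h fitted alone (adjusted p = 0.00442), and after median-of-ratios or upper quartile rescaling (−0.90 for both, adjusted p = 0.0264 and 0.0304). At 72 hpl the change of −0.60 (adjusted p = 0.119) passed without 72 hpl replicate 5 (−0.79, adjusted p = 0.0351).

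pde6h, the inhibitory subunit of the enzyme, which RefSeq names pde6ha, fell at 36 hpl and at no other time-point in the fit over all libraries. Its 6 libraries at 36 hpl held between 10674 and 20519 normalized reads with a median of 14239, against 40210.0 to 78989 with a median of 61887 at 0 h, with no overlap. The mean was 14382 ± 3542 at 36 hpl and 61369 ± 14187 at 0 h (SD, n = 6 each), a log2 change of −2.09 (standard error 0.26, adjusted p = 2.11e-08). At the other 6 light time-points its mean lay between 68.6% (28 dpl) and 97.5% (14 dpl) of that at 0 h, with ranges that overlapped the baseline and adjusted p between 0.164 and 0.961. At 28 dpl the 3 libraries of set 1 held between 29595 and 30567 normalized reads and the 3 of set 2 between 49140.4 and 56730.4, while at 0 h set 1 held 65501 to 78989 and set 2 held 40210.0 to 58273. The log2 change at 28 dpl was −1.26 within set 1 and 0.12 within set 2, a difference of 1.39 that did not pass (adjusted p = 0.0892). With set 1 fitted alone, the fall at 28 dpl passed (adjusted p = 0.012, limma, 3 libraries per time-point). It also passed without 24 hpl replicate 1, 72 hpl replicate 4 and 28 dpl replicate 5 (−0.67, adjusted p = 0.0337, limma). That choice was made after seeing the data.

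Of the 3 opsin kinases, grk7a fell at 1 time-point, grk7b at 6 and grk1b at 7. grk7a, which in zebrafish is required for cones to recover from light, held between 796 and 1055 normalized reads with a median of 833 at 0 h, between 503 and 2374 with a median of 1637 at 24 hpl, between 68.6 and 213 with a median of 139 at 36 hpl, between 125 and 1674 with a median of 1310 at 72 hpl and between 1237 and 1711 with a median of 1381 at 5 dpl. At 36 hpl no library reached the baseline range, at 5 dpl every library was above it, and at 24 and 72 hpl 1 library of each was far below the others. grk7a fell at 36 hpl (log2 change −2.72, standard error 0.35, adjusted p = 4.34e-08), to 15.9% of its 0 h mean. The other log2 changes, between −0.12 and 0.73, did not pass in the fit over all time-points.

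Whether grk7a passed at 24 hpl turned on either of 2 libraries. With all 6 libraries the mean was 183% of the 0 h mean (log2 change 0.73, adjusted p = 0.166). 24 hpl replicate 1 held 503 normalized reads and the other 5 between 1426 and 2374, and without it grk7a was at 208% of the 0 h mean and passed (1.06, adjusted p = 0.0258). It also passed without 72 hpl replicate 4, at the same log2 change (0.73, adjusted p = 0.0286). With both libraries left out, a choice made after seeing the data, grk7a passed as higher than 0 h at 24 hpl (1.05, adjusted p = 0.000102), at 72 hpl (0.61, adjusted p = 0.0312) and at 5 dpl (0.65, adjusted p = 0.0163). At 5 dpl it also passed with no library left out when 5 dpl and 0 h were fitted alone (0.65, adjusted p = 0.000175).

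grk7b, the paralog of grk7a, fell at 6 of the 7 light time-points. It averaged 103 ± 29.8 normalized reads at 0 h, 32.8 ± 9.62 at 24 hpl, 13.9 ± 4.04 at 36 hpl, 27.4 ± 19.2 at 72 hpl, later 44.4 ± 15.99 at 5 dpl, 28.7 ± 9.14 at 10 dpl, then 45.0 ± 16.5 at 14 dpl and 43.6 ± 19.9 at 28 dpl (SD, n = 6 each). At 24, 36 and 72 hpl and at 10 dpl every library was below the lowest at 0 h, which held 59.2. Its log2 change, with a standard error of 0.40, was −1.63 (adjusted p = 0.00288) at 24 hpl, −2.80 (adjusted p = 5.12e-07) at 36 hpl, −2.31 (adjusted p = 2.67e-05) at 72 hpl and −1.81 (adjusted p = 0.0016) at 10 dpl. The later calls were near the threshold. The call at 5 dpl (−1.23, adjusted p = 0.0443) was lost when any of 9 libraries of 0 h or 5 dpl was left out (adjusted p 0.052 to 0.119), and that at 28 dpl (−1.31, adjusted p = 0.0252) without 28 dpl replicate 4 or 6, library A of set 2 at 0 h or 0 h replicate 5 (adjusted p 0.056 to 0.0778). At 14 dpl grk7b did not pass (−1.19, adjusted p = 0.0559), and it passed without 0 h replicate 2, 72 hpl replicate 1, 4 or 6 or 14 dpl replicate 3 (adjusted p 0.00699 to 0.0478).

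grk1b, a kinase of the GRK1 type that zebrafish cones express, had the lowest log2 change of the 10 genes at each of the 7 light time-points and fell at all of them. The 6 libraries at 0 h held between 647 and 1294 normalized reads with a median of 925, those at 24 hpl between 37.2 and 145 with a median of 73.6, those at 36 hpl between 21.5 and 61.2 with a median of 41.0, and those at 28 dpl between 171 and 396 with a median of 287. No light library of any time-point reached the baseline range, the highest being 443 at 14 dpl. The mean was 8.14% of that at 0 h at 24 hpl, 4.32% at 36 hpl, 11.1% at 72 hpl, later 15.4% at 5 dpl, 26.5% at 10 dpl, then 29.9% at 14 dpl and 31.3% at 28 dpl. Its log2 change, with a standard error of 0.51, was −3.71 (adjusted p = 2.27e-07) at 24 hpl, −4.55 (adjusted p = 1.68e-09) at 36 hpl, −3.77 (adjusted p = 2.01e-07) at 72 hpl, later −2.67 (adjusted p = 0.000161) at 5 dpl, −2.11 (adjusted p = 0.00441) at 10 dpl, then −1.78 (adjusted p = 0.0192) at 14 dpl and −1.67 (adjusted p = 0.0245) at 28 dpl. The size of the fall at 72 hpl depended on replicate 4 of that time-point, which held 1.88 normalized reads beside 108 or more in the other 5: without it the log2 change was −2.80 (adjusted p = 5.77e-11). The call at 28 dpl was lost without 28 dpl replicate 5 (−1.48, adjusted p = 0.0816).

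With the 8 time-points of each gene ordered by mean level, 5 of the 70 pairs of neighbors differed past the test. For pde6c, pde6h and grk7a it was the lowest pair, with 28 dpl above 36 hpl (adjusted p = 7.82e-11, 4.12e-05 and 3.42e-07). For gnat2 it was also the lowest pair, 24 hpl above 36 hpl (adjusted p = 0.000108), and for grk1b the highest pair, in which 28 dpl was below 0 h. The grk1b pair did not pass without 28 dpl replicate 5 (adjusted p = 0.0816, limma). The other 65 pairs did not pass in the fit over all time-points, and for gnb3a, gnb3b, gngt2a, gngt2b and grk7b no step between neighbors passed. Among them, 14 dpl and 0 h of gnat2 did not overlap in range and passed without 72 hpl replicate 4 (adjusted p = 0.00289, limma). The step between 14 dpl and 0 h of grk7b passed without any 1 of 5 libraries (adjusted p 0.00699 to 0.0478, limma). The order was made from the same means, so neighbors are the closest time-points by construction. Time-points further apart in the order did differ, such as 24 hpl and 0 h for gnb3b (adjusted p = 1.47e-09, limma). How often neighboring time-points of other genes would differ was not tested.

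To describe the 36 hpl samples apart from the early response around them, 36 hpl was set against the average of 24 and 72 hpl. Of the 10 genes, 4 were lower at 36 hpl (beside 5.41% of all genes tested) and 4 were higher (beside 8.87%). The lower ones were pde6c (log2 difference −3.35, standard error 0.23, adjusted p = 1.36e-16), grk7a (−3.11, adjusted p = 1.86e-11), pde6h (−1.85, adjusted p = 9.58e-09) and gnat2 (−1.46, adjusted p = 3.36e-05). The higher ones were the beta and gamma subunits of transducin: gngt2b (1.23, adjusted p = 5.09e-07), gnb3b (1.06, adjusted p = 0.000172), gngt2a (0.87, adjusted p = 0.00372) and gnb3a (0.69, adjusted p = 0.00205). At 36 hpl, then, the alpha subunit and the phosphodiesterase were below their level at 24 and 72 hpl, and the beta and gamma subunits were above it. The call for gngt2a was lost without 36 hpl replicate 5 (0.56, adjusted p = 0.0544). grk7b (−0.83, adjusted p = 0.105) and grk1b (−0.81, adjusted p = 0.235) did not pass with all libraries, and passed as lower without 72 hpl replicate 4 (adjusted p = 0.0021 and 2.31e-05). 36 hpl was the only time-point that is not a whole number of days after light onset, so the hour of the day and the duration of light cannot be told apart there. The median log2 difference of all genes tested was 0.17 in this comparison.

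The end of the time-course was set against its early part in the same way. At 28 dpl against 24 hpl, 6 of the 10 genes were higher (beside 12.5% of all genes tested) and pde6c was lower (beside 8.36%). The higher genes were gngt2b (log2 difference 2.11, adjusted p = 1.16e-10), gnb3b (2.06, adjusted p = 1.29e-08), grk1b (2.03, adjusted p = 0.00272), gngt2a (0.98, adjusted p = 0.00383), gnat2 (0.92, adjusted p = 0.024) and gnb3a (0.80, adjusted p = 0.00166). All 5 transducin subunits were thus higher at 28 dpl than at 24 hpl, and gnat2 did not pass without 24 hpl replicate 1 (0.76, adjusted p = 0.0889). The fall of pde6c (−0.74, adjusted p = 0.0384) was lost when any of 8 libraries of these time-points was left out (adjusted p 0.0527 to 0.114). grk7a (−0.84, adjusted p = 0.0794) passed as lower without 24 hpl replicate 1 or 72 hpl replicate 4 (adjusted p 0.00772 to 0.00946), and after median-of-ratios or upper quartile rescaling (adjusted p = 0.0406 and 0.0481).

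At 28 dpl against 5 dpl, gngt2b (1.45, standard error 0.21, adjusted p = 1.57e-05) and gnb3b (0.92, standard error 0.24, adjusted p = 0.0389) were higher, beside 0.544% of all genes tested. The call for gnb3b was lost when any of 10 libraries of these time-points was left out (adjusted p 0.0535 to 0.0911). pde6c (−0.92, adjusted p = 0.0583) passed as lower when 24 hpl replicate 1, 72 hpl replicate 4 or 5 or 14 dpl replicate 6 was left out (adjusted p 0.00842 to 0.0476), and grk1b (0.998, adjusted p = 0.399) passed as higher without 72 hpl replicate 4 (adjusted p = 0.0301). Both also passed when 28 and 5 dpl were fitted alone (adjusted p = 0.0091 and 0.0177).

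Whether duplicated genes changed alike was tested on their log2 ratio within each library, with an exact two-sided permutation test that kept the library sets apart (400 splits, smallest possible p = 0.005) and an adjustment over 21 tests, 3 pairs at 7 time-points. The ratio differed from that at 0 h in 10 of the 21. The share of other pairs of genes that would differ was not tested. The pair grk7a and grk7b passed at 6 of 7 time-points. The log2 ratio of grk7a over grk7b averaged 5.49 at 24 hpl, 5.51 at 72 hpl, later 5.02 at 5 dpl, 5.12 at 10 dpl and 4.55 at 14 dpl, against 3.14 at 0 h, with no overlap between light and baseline libraries (adjusted p = 0.0131 for each, exact permutation test, n = 6 against 6). At 28 dpl it averaged 4.34 against 3.14 at 0 h (adjusted p = 0.0315, exact permutation test), and that call was lost when any of 6 libraries of these time-points was left out (adjusted p 0.0525 to 0.084). At 36 hpl, where both genes were far below baseline, the ratio was 3.22 against 3.14, a change of 0.08 (adjusted p = 0.93, exact permutation test). In the ratio plot of the paralogs the 36 hpl and 0 h libraries of this pair overlap.

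**Figure D3:**
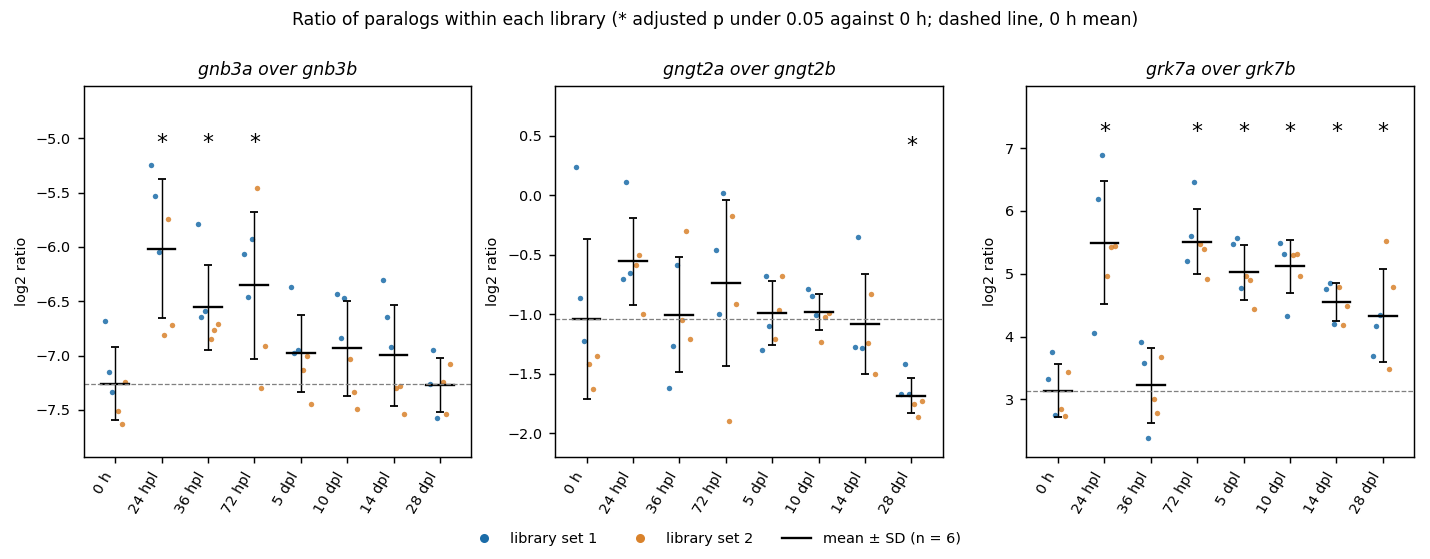
Log2 ratio of (normalized read count + 1) of each pair of paralogs (vertical axes) in every library at the 8 time-points (horizontal axes), with mean and SD of 6 libraries in black, the 0 h mean as a dashed line and an asterisk where the exact permutation test against 0 h passed. The grk7a over grk7b ratio is raised at 6 of 7 light time-points and lies at its 0 h level at 36 hpl.

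For the beta subunits, the log2 ratio of gnb3a over gnb3b was higher at 24 hpl (−6.02 against −7.26 at 0 h, adjusted p = 0.0131, exact permutation test), 36 hpl (−6.56 against −7.26, adjusted p = 0.0131, exact permutation test) and 72 hpl (−6.35 against −7.26, adjusted p = 0.0233, exact permutation test), with gnb3b further below its baseline than gnb3a. At 72 hpl the call was lost without library A of set 2 at 0 h or 0 h replicate 5 (adjusted p = 0.07). At 28 dpl the ratio was −7.27 against −7.26 at 0 h. For the gamma subunits the ratio of gngt2a over gngt2b was lower only at 28 dpl (−1.68 against −1.04 at 0 h, adjusted p = 0.0131, exact permutation test), and that call was lost without 28 dpl replicate 1 or 3 (adjusted p = 0.0525). The 0 h libraries themselves spread widely in this ratio: without 0 h library A of set 1 it passed as higher at 24 hpl (adjusted p = 0.021) and 10 dpl (adjusted p = 0.0404).

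Of the cone genes, 6 were then compared with a gene that rods use in their place, again as a log2 ratio within each library. This gave 42 tests of 6 pairs at 7 time-points. The genes gnb3a, gngt2a, grk7b and grk1b were not paired with a rod gene, and the ratio of grk1b over grk1a was not tested. The counts below therefore hold for these 6 pairs only and depend on that choice. The rod partners were gnat1 for gnat2, gnb1b for gnb3b, gngt1 for gngt2b, pde6a for pde6c, pde6g (pde6gb in RefSeq) for pde6h and grk1a for grk7a. The ratio differed from that at 0 h in 28 of the 42, toward the cone gene in 22 and toward the rod gene in 6. How often the ratio of other pairs of genes would differ was not tested, so these counts have no background share beside them. At 14 and 28 dpl it was higher for all 6 pairs. At 36 hpl it was lower for 4 pairs.

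**Figure D4:**
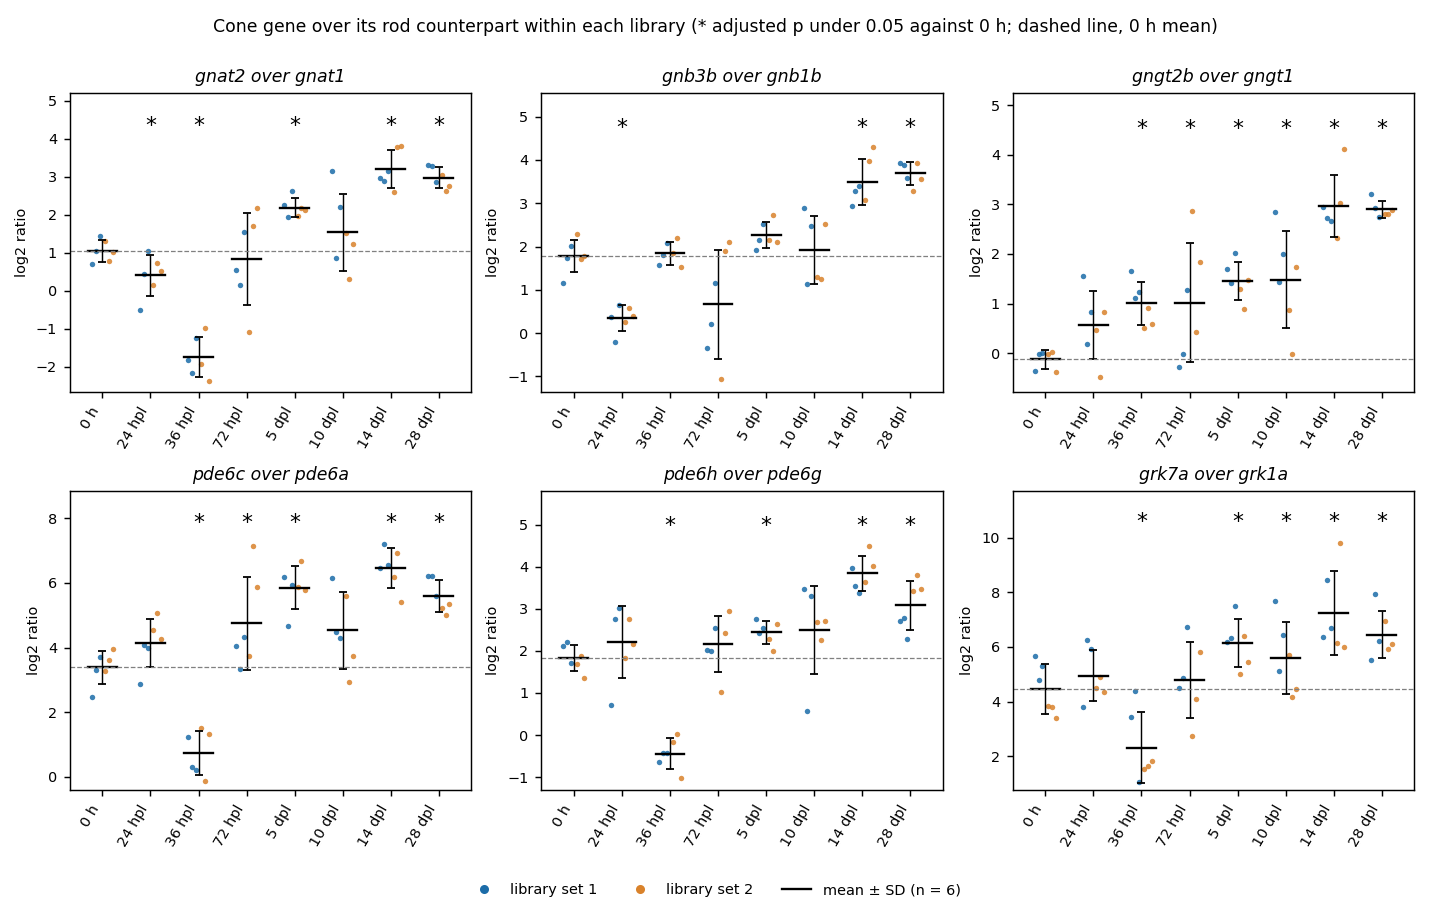
Log2 ratio of (normalized read count + 1) of 6 cone genes over their rod counterparts (vertical axes) in every library at the 8 time-points (horizontal axes), with mean and SD of 6 libraries in black, the 0 h mean as a dashed line and an asterisk where the exact permutation test against 0 h passed. At 14 and 28 dpl all 6 pairs lie above their 0 h mean, and at 36 hpl the pairs with gnat2, pde6c, pde6h and grk7a lie below it.

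At 28 dpl the log2 ratio of gngt2b over gngt1 was 2.898 against −0.12 at 0 h, that of pde6c over pde6a 5.60 against 3.39, that of gnat2 over gnat1 2.98 against 1.05 and that of gnb3b over gnb1b 3.69 against 1.78, each without overlap between the groups (adjusted p = 0.0095 for each, exact permutation test, n = 6 against 6). The cone gene itself was at 196% of its 0 h mean for gngt2b, 51.0% for pde6c, 59.0% for gnat2 and 90.9% for gnb3b, and the rod gene at 24.6% for gngt1, 10.3% for pde6a, 15.6% for gnat1 and 24.98% for gnb1b. The ratio was thus higher both where the cone gene was above baseline and where it was below. At 28 dpl the ratio of pde6h over pde6g was 3.08 against 1.83 at 0 h, also without overlap (adjusted p = 0.0095, exact permutation test). That of grk7a over grk1a was 6.45 against 4.46, with groups that overlapped (adjusted p = 0.0175, exact permutation test).

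At 36 hpl the ratio of pde6c over pde6a was 0.74 against 3.39 at 0 h, that of gnat2 over gnat1 −1.75 against 1.05, that of pde6h over pde6g −0.44 against 1.83 and that of grk7a over grk1a 2.31 against 4.46 (adjusted p = 0.0095 for each, exact permutation test, n = 6 against 6). In the first 3 of these pairs the groups did not overlap. At the same time-point the ratio of gngt2b over gngt1 was higher (1.003 against −0.12, adjusted p = 0.0095, exact permutation test), and that of gnb3b over gnb1b was 1.84 against 1.78 at 0 h (adjusted p = 0.765, exact permutation test). At 24 hpl the ratio was lower for gnb3b over gnb1b (0.34 against 1.78 at 0 h, adjusted p = 0.0095, exact permutation test) and for gnat2 over gnat1 (0.40 against 1.05, adjusted p = 0.045, exact permutation test), and the second call was lost when any of 10 libraries was left out (adjusted p 0.0504 to 0.122). The other pairs did not pass at 24 hpl with all libraries, but passed as higher with 1 library left out (adjusted p 0.00913 to 0.0467, exact permutation test). Without 24 hpl replicate 1 these were pde6c over pde6a, pde6h over pde6g and grk7a over grk1a. For pde6c over pde6a this also held without 0 h replicate 3, and gngt2b over gngt1 passed without 24 hpl replicate 2 or 5. The calls at 72 hpl for gngt2b and pde6c and at 10 dpl for grk7a, all between an adjusted p of 0.042 and 0.045 (exact permutation test), were likewise lost when 1 of 7 to 10 libraries was left out (adjusted p 0.0525 to 0.115). With 1 library left out, gnb3b over gnb1b passed as lower at 72 hpl and as higher at 5 dpl. In the same way pde6c over pde6a and pde6h over pde6g passed as higher at 10 dpl (adjusted p 0.00875 to 0.045 for these 4, exact permutation test).

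Of further genes of the cone pathway, 24 were listed, and these moved in both directions. They were opsins, arrestins, recoverins, guanylate cyclase and its activators, RGS9 and its partners, slc24a2 and the channel gene kcnv2b. Which of them rods also express was not tested. This list, and that of the rod transduction genes below, was chosen with earlier results of these data known. The channel genes cnga3a, cnga3b, cngb3.1, cngb3.2 and kcnv2a and the cyclase gucy2d were not listed under these names, so nothing is said of them here by name. A guanylate cyclase was listed as gc3, and whether it is the same gene as gucy2d was not checked. At 24 hpl 10 of the 24 fell, 8 of them opsins, beside 7.14% of all genes tested, and 4 rose, beside 8.37%, with a median log2 change of −0.69. The largest changes were those of the green opsins opn1mw1 (−6.73, adjusted p = 2.1e-07), opn1mw2 (−6.41, adjusted p = 1.26e-15) and opn1mw4 (−4.15, adjusted p = 2.88e-11) and the red opsin opn1lw2 (−4.73, adjusted p = 4.59e-07). Among the 10 genes the lowest log2 change at this time-point was that of grk1b, −3.71.

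At 36 hpl 6 of the 24 fell, beside 3.8% of all genes tested, and 18 did not pass, with a median of −0.57. The largest changes were guca1c, a guanylate cyclase activator (−4.03, adjusted p = 4.84e-14), opn1lw2 (−3.55, adjusted p = 0.0001), gc3, a guanylate cyclase (−2.48, adjusted p = 1.11e-07) and rgs9a, which speeds GTP hydrolysis on transducin (−2.23, adjusted p = 2.91e-08). At 28 dpl 3 of the 24 rose, beside 7.74% of all genes tested, and 8 fell, beside 3.26%, with a median of −0.62, led by rgs9bp, the anchor of RGS9 (−2.13, adjusted p = 4.25e-05), opn1lw2 (2.12, adjusted p = 0.0319), opn1mw3 (−1.80, adjusted p = 0.00254) and the cone arrestin arr3b (1.74, adjusted p = 8.61e-06). Of 16 rod transduction genes tested, 13 fell and 1 rose at 28 dpl, against the same 3.26% and 7.74% of all genes, with a median of −1.98. Of the 10 cone genes 3 fell and 1 rose there.

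Across the 48 libraries, with the mean of each library set subtracted, the 10 genes fell into differing courses, given here as a description. pde6c and grk7a were alike (Pearson r = 0.934), and each had r = 0.82 with pde6h. gnat2 was close to grk1b (r = 0.898) and grk7b (r = 0.841). gnb3a was closest to gnb3b (r = 0.810) and gngt2a was close to gngt2b (r = 0.756). Between the pair of gngt2b and pde6c, r was −0.32. These points share the time-points and the common scaling of the libraries.

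By the same measure over all genes tested, gnat2 was most like prph2b, an outer segment disc rim protein (r = 0.924), inaa (0.923) and grk1b (0.898), and grk1b was most like prph2b (0.948), inaa (0.901) and gnat2 (0.898). gnb3b was most like the UV opsin opn1sw1 (0.860), the blue opsin opn1sw2 (0.857) and zgc:195245 (0.854), and gnb3a was most like gnb3b, gng3 (0.757) and opn1sw2 (0.738). pde6c was most like grk7a, ckbb, a creatine kinase (0.932), and guca1c (0.925), and grk7a was most like pde6c, lrit1b (0.931) and ckbb (0.929). pde6h was most like irbp, a retinoid carrier between photoreceptors and pigment epithelium (0.883), tpd52l1 (0.882) and pvalb9 (0.879). grk7b was most like gnat2, atp1b2b (0.813) and gc3 (0.791). gngt2b was most like fabp3 (0.827), cd9a (0.789) and slc9a3r1 (0.787), and gngt2a was most like guk1b (0.761), gngt2b and ss18l2 (0.715).

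The changes of the 10 genes were compared between the 2 library sets by an interaction term, which gave 70 tests. The p-values were adjusted over all 11395 genes at each time-point. None passed in limma, with a lowest adjusted p of 0.0892 for pde6h at 28 dpl and 3 at an unadjusted p under 0.05, while of all 11395 genes tested 325 passed at 28 dpl. The second was grk1b at 72 hpl, with a log2 change of −4.94 within set 2, which holds replicate 4, and −2.60 within set 1. The third was pde6h at 10 dpl, at 0.18 within set 2 and −0.85 within set 1. Chance alone gives an unadjusted p under 0.05 in about 1 in 20 tests.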

How the data were processed

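The deposited table holds pseudo-counts, a normalized signal that the authors made with edgeR from HTSeq gene counts of STAR alignments (tool versions not given in the sources used here), so no count model was used. Values were taken as log2(value + 1). Genes that reached 5 in 6 or more libraries (11395 of 15245) were tested with limma 3.58.1 (R 4.3.3; time-point plus library set as terms, trended empirical Bayes, 39 residual degrees of freedom), and p-values were adjusted by Benjamini-Hochberg. 12 symbols turned into dates, with 0.183% of the signal, were left out. Ratios within a library were compared by exact permutation within library sets. On simulated data with known changes at 24 hpl alone, the limma step called 50% of 2-fold and 74% of 4-fold changes. Far fewer genes were changed in the simulation than the 15.5% of all genes called at 24 hpl against 0 h. These rates therefore do not carry over to the tests above.

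Library sets were taken from the replicate numbers of the samples, and a mark in the column names matched them. For 2 libraries of the 0 h group the replicate number is ambiguous. They are named as library A, with their set read from that mark. In the sample descriptions the same mark stands with the other set, so the sets of these 2 libraries rest on the column names. Fish were separate animals, collected over 2 rounds of light. Same-numbered libraries did not deviate together (28 pairs, median r = −0.0135). The table of means was checked against the library values and was not used further. The genes and gene lists were chosen with earlier results of these data known. The named genes were the 10 members, their rod counterparts, up to 4 other cone genes with the largest called change at 24 hpl, 36 hpl and 28 dpl, and the 3 genes most like each member. No genome or sequence table was used here.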

Additional observations from a re-analysis of the deposited data

Results flagged for a closer look

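Within each of the 80 groups of 6 libraries (10 genes at 8 time-points), the gap between the extreme library and its nearest neighbor was compared with the range of the group, with Dixon's 95% critical value of 0.625. This marked 3 groups, and chance marks about 1 in 20. For grk1b at 72 hpl, replicate 4 held 1.88 normalized reads and the next lowest library 108 (0.638 of the range). For grk7a at 72 hpl, the same library held 125 and the next lowest 1098 (0.628 of the range). For gnat2 at 28 dpl, replicate 5 held 4604 and the next lowest library 6031 (0.7 of the range).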

How the results depend on the processing

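The counts of genes past the test at 24, 36 and 72 hpl against 0 h stayed within 1.5 times of 6, 7 and 6 under every alternative run, and none of the 100 log2 changes of the 10 genes reversed its sign while called. Of these 100, 50 were past the test, and 52 crossed the threshold in some alternative or with some library left out. The later comparisons moved more. Their counts against 0 h were 5 at 5 dpl, 4 at 10 dpl, then 1 at 14 dpl and 4 at 28 dpl, 8 at 36 hpl against 24 and 72 hpl, 2 at 28 dpl against 5 dpl and 7 at 28 dpl against 24 hpl. At 5 dpl the count was 3 with no filter on low values, in the first library set alone, without the empirical Bayes trend, at an adjusted p under 0.01 or with a fold of at least 2, and 1 in the second set alone. At 10 dpl it was 2 in the first set alone or at an adjusted p under 0.01, and 1 in the second set alone. At 14 dpl it was 2 with a pseudocount of 5, a filter of at least 20, or median-of-ratios rescaling. It was 4 with only the time-points compared. Separately, it was 4 with 24 hpl replicate 1 and 72 hpl replicate 4 both left out, or with 28 dpl replicate 5 left out beside them. It was 0 in limma in the second set alone or at an adjusted p under 0.01 (6 of 10 had an unadjusted p under 0.05 with all libraries). At 28 dpl it was 2 in the second set alone or at an adjusted p under 0.01. At 36 hpl against 24 and 72 hpl it was 5 in the second set alone. At 28 dpl against 5 dpl it was 1 with no filter, upper quartile rescaling, no trend, the second set alone, an adjusted p under 0.01 or a fold of at least 2, 6 with only the time-points compared, and 5 with those 2 or those 3 libraries left out, choices made after seeing the data. At 28 dpl against 24 hpl it was 3 in the second set alone or with a fold of at least 2. Each set alone holds 3 libraries per time-point. The cause of the other shifts was not tested, and the share of all genes called under each alternative was not counted. Leaving out 1 library at a time gave 3 to 5 at 5 dpl, 1 to 3 at 14 dpl and 1 to 4 at 28 dpl against 5 dpl. Median-of-ratios rescaling moved the median log2 change of all genes by −0.15 at 36 hpl, −0.15 at 10 dpl, −0.14 at 36 hpl against 24 and 72 hpl and −0.11 at 28 dpl against 24 hpl.

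Replicate numbers did not pair the libraries (2 of 28 pairs had r over 0.1). With the replicate number as a block, over the 46 libraries with a number, the count was 3 at 5 dpl, 0 at 14 dpl and 2 at 28 dpl against 0 h, and the other counts stayed within 1.5 times. The counts of paralog ratios (10 of 21) and cone to rod ratios (28 of 42) that differed stayed at 10 and 28 with a pseudocount of 5 and with splits not kept within sets, and were 8 to 13 and 24 to 30 with 1 library left out.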
